A study of Homo sapiens with 24 samples.

Results

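Histone marks were read over 9 genes of the human pluripotency network: POU5F1, NANOG, SOX2, ZFP42, DPPA4, DNMT3B, LIN28A, LIN28B and L1TD1. Each gene was given a window of 20 to 146 kb in the hg19 build, and every region of the deposited count tables that overlapped a window was taken. This gave 32 of 153244 regions, in 8 of the 9 windows. The rule uses positions alone, but the genes were picked with earlier results of these data known. The cells were ventricular-like cardiomyocytes derived from H9, a line of human embryonic stem cells, and harvested on day 15 of differentiation. ZNF436kd cells, in which the zinc finger gene ZNF436 was knocked down, were compared with ctrl cells put through the same differentiation, and the question was where chromatin differed when ZNF436 was reduced. Each group had 3 CUT&Tag libraries per mark for H3K4me3, H3K27ac, H3K4me1 and H3K9me3, 24 in all; in this assay an antibody guides a transposase that tags DNA at marked nucleosomes. The sources used here do not say how the knockdown or its control was made. All libraries descend from this single line, and the labels do not say whether replicates came from separate differentiations, so p-values cover only the variation among these libraries, and that may be technical.

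POU5F1 (OCT4), SOX2 and NANOG are transcription factors that hold embryonic stem cells in the undifferentiated state and bind many of the same control elements. The stem cell network is switched off as cells commit to the cardiac lineage, and its genes then lose active marks or gain repressive ones. H3K4me3 sits over gene starts that are active or poised, H3K27ac over active starts and enhancers, H3K4me1 over enhancers, and H3K9me3 over silenced chromatin such as transposon-derived sequence.

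The sequences just upstream of 5 of the genes are shown, because H3K4me3 differed between groups most over the starts of DPPA4 and L1TD1, and because NANOG, which had no region, carries a textbook site of the network. They are 250 bases before the start in RefSeq GRCh38.p14, printed 5′ to 3′ on the strand of the gene, and were not converted to hg19. For DPPA4, L1TD1, ZFP42 and SOX2 the capitals mark CG dinucleotides, and for NANOG they mark a match, here on the opposite strand, to a joint site of SOX2 and OCT4, searched on both strands as CATTGT, 1 base of any kind and ATGCAAA.
DPPA4: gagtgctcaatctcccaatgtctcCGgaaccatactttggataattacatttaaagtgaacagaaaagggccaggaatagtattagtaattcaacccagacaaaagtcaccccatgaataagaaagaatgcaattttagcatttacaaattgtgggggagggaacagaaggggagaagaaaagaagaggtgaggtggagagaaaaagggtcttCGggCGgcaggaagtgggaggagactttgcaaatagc
L1TD1: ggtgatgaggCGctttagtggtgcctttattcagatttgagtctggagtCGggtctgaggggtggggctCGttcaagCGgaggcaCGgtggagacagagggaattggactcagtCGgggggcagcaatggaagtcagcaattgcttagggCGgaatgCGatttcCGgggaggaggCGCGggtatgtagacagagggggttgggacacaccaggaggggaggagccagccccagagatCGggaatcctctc
ZFP42: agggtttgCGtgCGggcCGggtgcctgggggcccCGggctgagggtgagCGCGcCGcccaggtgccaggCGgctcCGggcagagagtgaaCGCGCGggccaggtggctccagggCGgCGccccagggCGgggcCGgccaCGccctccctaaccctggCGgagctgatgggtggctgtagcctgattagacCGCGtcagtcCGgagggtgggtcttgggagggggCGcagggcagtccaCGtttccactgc
SOX2: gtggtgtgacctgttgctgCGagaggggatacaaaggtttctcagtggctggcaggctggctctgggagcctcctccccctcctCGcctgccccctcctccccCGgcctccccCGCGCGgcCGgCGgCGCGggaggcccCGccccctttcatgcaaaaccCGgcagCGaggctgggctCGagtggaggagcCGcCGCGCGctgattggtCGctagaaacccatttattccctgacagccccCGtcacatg
NANOG: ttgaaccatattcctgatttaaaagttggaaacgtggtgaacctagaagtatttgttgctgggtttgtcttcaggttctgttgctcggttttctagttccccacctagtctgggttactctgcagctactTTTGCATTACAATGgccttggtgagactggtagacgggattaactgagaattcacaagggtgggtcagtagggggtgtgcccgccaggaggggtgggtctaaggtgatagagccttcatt
These stretches lie at chr3:109337547-109337796 for DPPA4 (minus strand), chr1:62194599-62194848 for L1TD1, chr4:187995521-187995770 for ZFP42, chr3:181711675-181711924 for SOX2 and chr12:7789152-7789401 for NANOG (plus strand). DPPA4 had 3 CG dinucleotides, L1TD1 12, ZFP42 23 and SOX2 20. Among 35116 RefSeq promoters, the median was 11 in the same 250 bases, and 77.1% had at least as many as DPPA4. The share was 48.5% for L1TD1, 25.8% for ZFP42 and 32.45% for SOX2. The stretches of LIN28B and DNMT3B were not printed, and a link between CG number and H3K4me3 was not tested. The joint site was found in NANOG and in 0.0057% of all promoters (2 of 35116), and not in the other 4 printed stretches. A match or its absence describes these letters only.

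A library held 11023905 to 13933927 counts for H3K4me3 and 3920283 to 4936265 for H3K4me1. The H3K27ac libraries held 2955710 to 3681687 counts, and the H3K9me3 libraries 2103185 to 2880412. Values below are CPM (counts put on a common library size after TMM scaling) or, where genes are compared with each other, CPM per kb of region. The start of ZNF436 itself (chr1:23686304-23698054) had 11.6, 10.1 and 9.59 CPM of H3K4me3 in ZNF436kd libraries, against 153, 173 and 161 CPM in ctrl libraries, so marks at the targeted gene went with the labels; no RNA was measured. Cardiomyocyte marks were present in every library. Over the starts of 9 cardiomyocyte genes (TNNT2, MYH6, MYH7, ACTN2, MYL7, NKX2-5, TTN, RYR2 and PLN), H3K4me3 summed to 979, 802 and 891 CPM in ZNF436kd libraries, against 500, 277 and 967 CPM in ctrl libraries. The H3K27ac sums were 1824, 1571 and 1703 CPM in ZNF436kd libraries, against 1060, 622 and 1771 CPM in ctrl libraries. Control 2 was thus the lowest of the 6 libraries in both marks, and control 3 lay within the range of the ZNF436kd libraries in both marks. Bulk libraries cannot tell fewer cells that carry a mark from less of the mark per cell.

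The windows differed in what they held. SOX2, a transcription factor also used by neural progenitors, had 1 region, which covers its start (chr3:181428316-181431361) and lies inside the long noncoding gene SOX2-OT. ZFP42 (REX1, a zinc finger marker of undifferentiated cells) had 2 regions and DPPA4 (a nuclear protein of pluripotent cells) had 2. DNMT3B, the DNA methyltransferase that sets new methylation in early development, had 6. LIN28A and LIN28B, RNA-binding proteins that block maturation of let-7 microRNAs, had 5 and 11, and L1TD1, an RNA-binding protein derived from a LINE-1 transposon, had 4. NANOG had 0 regions, so its marks were not measured here. The single region of the POU5F1 window (chr6:31125054-31127825) lies over the facing starts of TCF19 and CCHCR1 and not over the start of POU5F1. The last region of the LIN28A window (chr1:26758152-26760020) lies over the start of DHDDS. POU5F1 and NANOG also have near-identical pseudogene copies elsewhere, and the sources used here do not say how reads with several matches were treated. Exons and introns were not assigned, since no hg19 annotation was used.

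POU5F1 and NANOG had no start region and are not counted here. Where several regions lay near a start, the region with the most H3K4me3 per kb was used. H3K4me3 was present over the starts of all 7 genes that had a start region, in both groups. The strongest was DNMT3B (chr20:31349396-31352030), with 24.1 ± 3.18 CPM per kb in ZNF436kd cells and 27.1 ± 1.88 CPM per kb in ctrl cells (SD, n = 3 each, here and for the next genes). LIN28B (chr6:105400748-105408372) followed with 17.2 ± 1.12 CPM per kb in ZNF436kd cells and 17.5 ± 1.82 CPM per kb in ctrl cells. LIN28A (chr1:26735575-26739460) had 13.5 ± 1.08 CPM per kb in ZNF436kd cells and 13.0 ± 0.85 CPM per kb in ctrl cells. Among these 3, neighbours did not overlap in either group. SOX2 had 10.4 ± 0.35 CPM per kb in ZNF436kd cells and 8.41 ± 1.63 CPM per kb in ctrl cells. L1TD1 (chr1:62660322-62661589) had 6.94 ± 0.74 CPM per kb in ZNF436kd cells and 11.1 ± 3.66 CPM per kb in ctrl cells. ZFP42 (chr4:188916448-188918386) had 5.87 ± 0.30 CPM per kb in ZNF436kd cells and 7.18 ± 3.29 CPM per kb in ctrl cells. DPPA4 (chr3:109053950-109056663) was the lowest in both groups, with 3.498 ± 0.33 CPM per kb in ZNF436kd cells and 6.56 ± 0.98 CPM per kb in ctrl cells. In ZNF436kd cells no neighbours in this order overlapped. In ctrl cells LIN28A and SOX2 were still apart, but L1TD1 had the next mean below LIN28A and overlapped it. L1TD1 reached 14.8 CPM per kb in control 2, against 12.2 to 13.9 CPM per kb for LIN28A in ctrl libraries. SOX2, L1TD1, ZFP42 and DPPA4 also overlapped their neighbours in ctrl cells.

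**Figure D1:**
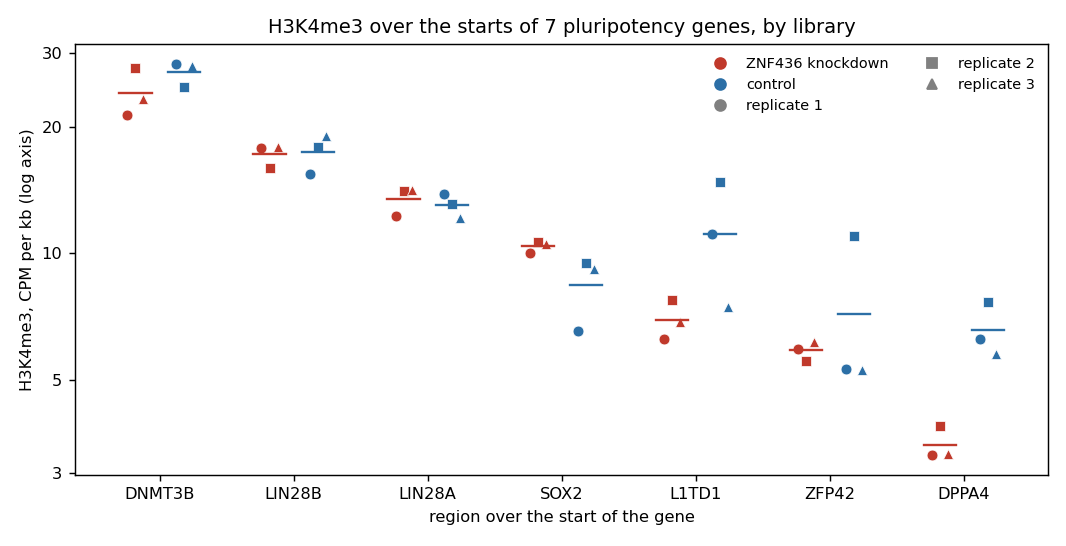
H3K4me3 in CPM per kb (log axis) over the start region of 7 pluripotency genes in each library, ZNF436kd left of ctrl for each gene; bars are means of 3 libraries and symbols give the replicate. DPPA4 is the gene with the widest gap between the groups, and control 2 is the highest library for L1TD1, ZFP42 and DPPA4.

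Ranked among all 153244 regions by mean CPM per kb, the 7 starts stood at percentiles 89.4 to 96.0 for H3K4me3 in ZNF436kd cells and 90.7 to 96.8 in ctrl cells. Such ranks were not particular to these genes. The 9 cardiomyocyte starts stood at 89.3 to 97.3 in ZNF436kd cells and 87.9 to 95.8 in ctrl cells. The starts of FOXA2, EPCAM and KDR, markers of other cells, stood at 90.9, 93.9 and 97.2 in ZNF436kd cells. In ctrl cells they stood at 92.0, 95.4 and 94.9. Only 26773 of all regions had enough H3K4me3 counts to be tested. H3K27ac split the 7 starts. It was high over LIN28B (percentile 89.7 in ZNF436kd cells and 82.1 in ctrl cells) and LIN28A (88.8 in ZNF436kd cells and 84.5 in ctrl cells). Over the other 5 starts it ranked between 21.2 and 44.2 in ZNF436kd cells and between 33.0 and 45.4 in ctrl cells. DNMT3B had the most H3K4me3 per kb and only 2.37 ± 0.84 CPM per kb of H3K27ac in ZNF436kd cells and 3.00 ± 0.19 CPM per kb in ctrl cells (SD, n = 3 each). H3K27ac in the DNMT3B window was higher away from the start. A region 45.2 kb past the start region (chr20:31395418-31396316) ranked at percentile 94.9 in ZNF436kd cells and 88.9 in ctrl cells. H3K9me3 over the starts ranked between 9.71 and 61.7 in ZNF436kd cells and between 14.9 and 68.8 in ctrl cells, with L1TD1 the highest, and SOX2 and L1TD1 alone of the 7 had enough counts for the test.

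**Figure D2:**
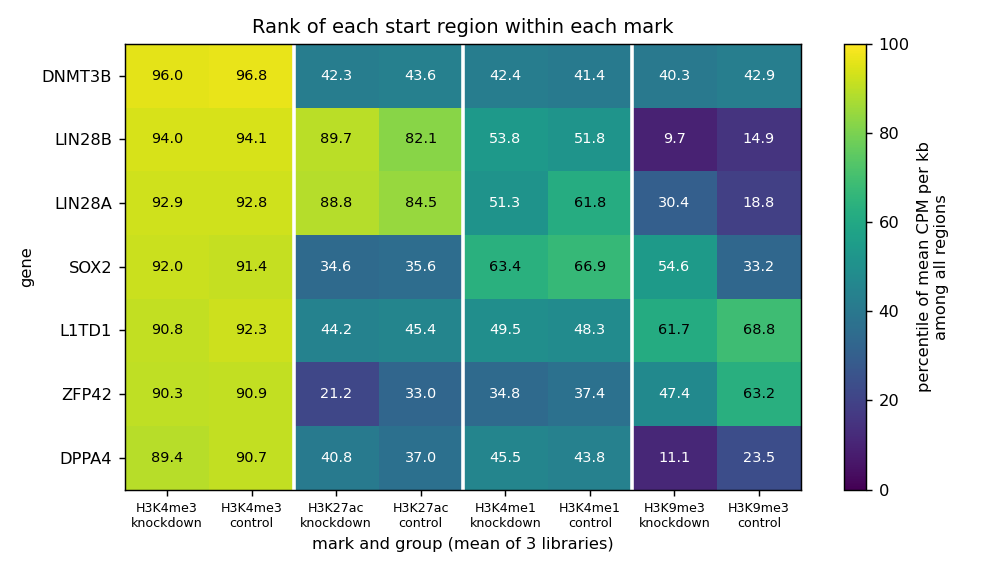
Percentile of the mean CPM per kb of each start region among all 153244 regions, for each mark, ZNF436kd left of ctrl (means of 3 libraries). All 7 starts rank high in H3K4me3, as did the 9 cardiomyocyte starts (not shown). LIN28A and LIN28B alone among the 7 rank above 80 in H3K27ac.

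Whether H3K4me3 at these genes differed in ZNF436kd cells was read from a test over all regions (edgeR's quasi-likelihood test, called at a Benjamini-Hochberg adjusted p under 0.05). H3K4me3 fell over the start of DPPA4 and passed the test nowhere else in the windows. Of the 32 regions, 12 had enough counts to be tested and 1 was called, where 0.56% of the 26773 regions tested were called, 0.187% as lower. Values were lower in ZNF436kd cells for 10 of the 12 and higher for 2. The 10 include the starts of the neighbours TCF19 and DHDDS. Over the 7 gene starts, 5 were lower and 2 higher. The share of lower values over all tested regions was not counted. The median log2 fold change was -0.22 over the 12 regions and -0.01 over all tested. The unadjusted p was under 0.05 for 3 of the 12 (10.2% of all tested), and the groups did not overlap for 2 (16.2% of all tested).

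H3K4me3 over the DPPA4 start was 8.96, 10.5 and 9.01 CPM in ZNF436kd libraries, against 16.97, 20.8 and 15.6 CPM in ctrl libraries. Every ZNF436kd library lay below every ctrl library. The log2 fold change was -0.91 (SE 0.20, adjusted p = 0.0455, edgeR), so the ZNF436kd level was 0.533 of the ctrl level. The call lies near the threshold. It held without control 3 (adjusted p = 0.0126) and was lost without control 1 (0.154), control 2 (0.0911), knockdown 1 (0.214), knockdown 2 (0.116) or knockdown 3 (0.31), with log2 fold changes from -0.99 to -0.78 in edgeR. With all 6 libraries, DESeq2 also made the call (adjusted p = 0.00267), as did edgeR with no filter (0.000519). RLE size factors, library totals, a stricter filter and halved counts kept it near the threshold (0.04445 to 0.04958, edgeR). A block on replicate number lost it (0.0686, edgeR). These fits share the same libraries. H3K27ac over the same start was 7.14, 4.17 and 6.78 CPM in ZNF436kd libraries, against 3.79, 11.4 and 2.94 CPM in ctrl libraries, and these overlapped. Its log2 fold change was 0.00 (SE 0.68), an error too wide to show a change of the size seen in H3K4me3.

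L1TD1 showed the next lowest p. Its start had 7.93, 9.80 and 8.68 CPM of H3K4me3 in ZNF436kd libraries, against 14.1, 18.7 and 9.46 CPM in ctrl libraries. Controls 1 and 2 stood above every ZNF436kd library, while control 3 lay within their range. The log2 fold change of -0.68 (SE 0.25) did not pass (unadjusted p = 0.0128, adjusted p = 0.292, edgeR). Without control 3 it was -0.90 and passed (adjusted p = 0.0357, edgeR), and without control 2 it was -0.42 (adjusted p = 0.662, edgeR).

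ZFP42 did not differ beyond its spread. It had 11.5, 10.8 and 11.9 CPM in ZNF436kd libraries, against 10.2, 21.3 and 10.2 CPM in ctrl libraries. Control 2 alone was high, and the log2 fold change was -0.30 (SE 0.26, adjusted p = 0.775, edgeR). Without control 2 the sign turned (0.15).

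SOX2 went the other way without passing. Its start had 30.5, 32.5 and 32.1 CPM in ZNF436kd libraries, against 19.9, 29.0 and 28.0 CPM in ctrl libraries. The groups did not overlap, with control 1 the lowest library, and the log2 fold change was 0.31 (SE 0.15, adjusted p = 0.511, edgeR). SOX2 and DPPA4 were the 2 regions without overlap counted above, a share near that of all tested regions.

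The remaining starts lay close to 0. DNMT3B had 56.4, 72.7 and 61.4 CPM in ZNF436kd libraries, against 74.7, 65.6 and 73.7 CPM in ctrl libraries (log2 fold change -0.17, SE 0.10, adjusted p = 0.615, edgeR). LIN28A had 47.6, 54.6 and 55.04 CPM in ZNF436kd libraries, against 53.8, 51.0 and 47.3 CPM in ctrl libraries (0.05, SE 0.10). LIN28B had 136, 122 and 137 CPM in ZNF436kd libraries, against 118, 137 and 145 CPM in ctrl libraries (-0.02, SE 0.08). The groups overlapped at all 3, and the errors were at most 0.10 on the log2 scale. The neighbours inside the windows were also measured. The TCF19 and CCHCR1 region had 50.2, 43.7 and 46.1 CPM in ZNF436kd libraries, against 54.1, 67.5 and 47.0 CPM in ctrl libraries (-0.27, unadjusted p = 0.0407, adjusted p = 0.455, edgeR). The groups overlapped through control 3. With control 3 as the only control, a choice made after the values were seen, the log2 fold change was -0.00052. Control 3 lies within the ZNF436kd range here, so this value follows from the choice and is no test. The DHDDS start was at -0.13 (SE 0.14).

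**Figure D3:**
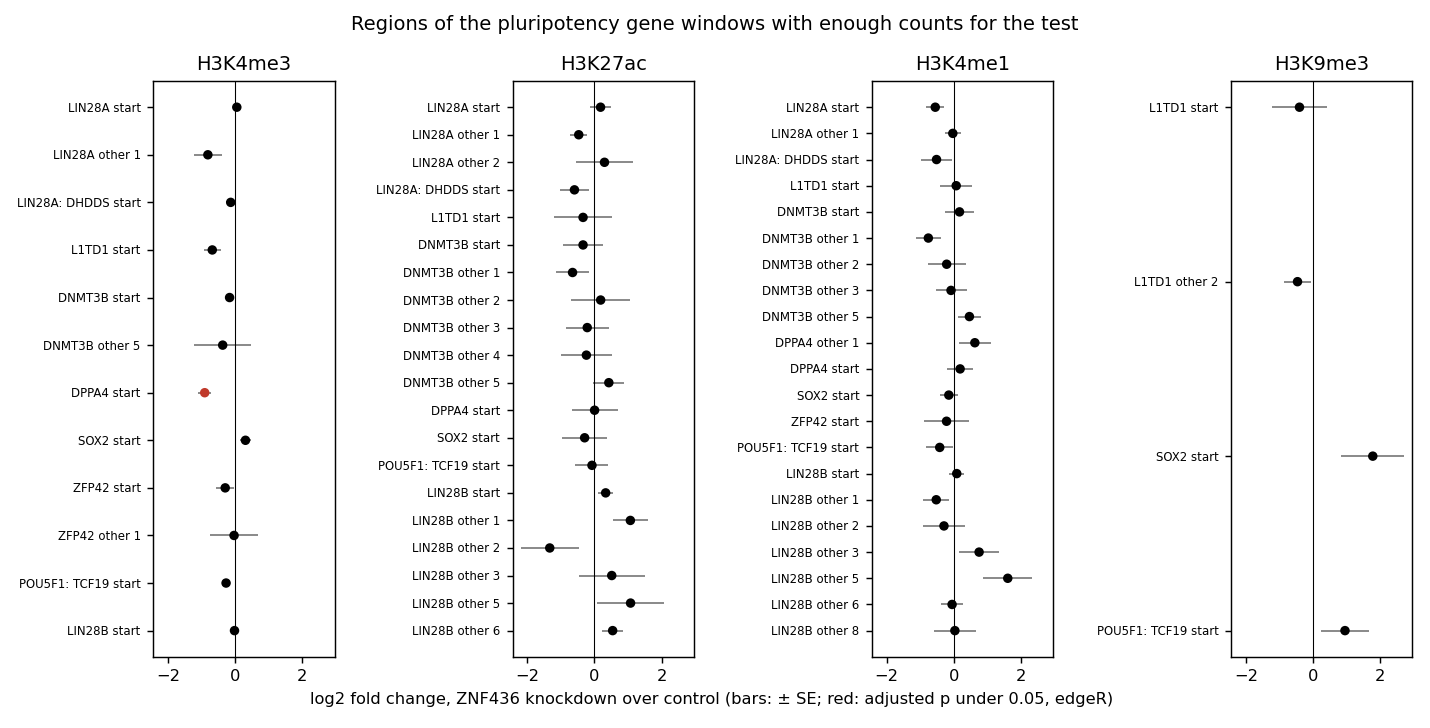
Log2 fold changes, ZNF436kd over ctrl, of the window regions with enough counts for the test in each mark (bars are SE; red marks an adjusted p under 0.05 in edgeR). Of all points, only the DPPA4 start in H3K4me3 is red, at -0.91.

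The ctrl libraries differed among themselves in the same genes. Their order over DPPA4 and L1TD1 was control 2, control 1, control 3 from high to low. This is the reverse of their order in the cardiomyocyte sum. ZFP42 had this order too, with controls 1 and 3 both at 10.2 CPM. So did the starts of TCF19 and DHDDS, which are neighbours and not members. SOX2, LIN28A, LIN28B and DNMT3B each had another order. For the 9 cardiomyocyte starts, all 9 H3K4me3 values were higher in ZNF436kd cells and 0 of 9 were called (median log2 fold change 0.67, smallest adjusted p 0.501, edgeR). Control 3, whose cardiomyocyte sum of 967 CPM lay within the ZNF436kd range of 802 to 979 CPM, is set beside them for 3 genes. Over DPPA4 the ZNF436kd libraries had 8.96 to 10.5 CPM and control 3 had 15.6 CPM. Over L1TD1 (9.46 CPM) it lay within the ZNF436kd range, and over ZFP42 (10.2 CPM) just under it. Control 3 was also used as the only control, a choice made after the values were seen. The log2 fold change was then -0.71 for DPPA4, -0.09 for L1TD1 and 0.16 for ZFP42 (edgeR). A lone ctrl library shows no spread of its own. These values follow from the choice of control 3 and are no test. Among markers of other cells, EPCAM, an epithelial and stem cell surface gene, was at -0.39 (adjusted p = 0.122) and KDR, an endothelial and mesodermal receptor, was higher in ZNF436kd cells (0.49, adjusted p = 0.0201, edgeR). KDR had 93.1, 89.3 and 89.9 CPM in ZNF436kd libraries, against 56.4, 62.3 and 75.0 CPM in ctrl libraries. It was the only endothelial start measured. CDH5 had no start region, and PECAM1 and the neural gene PAX6 were left out because their spans did not match. H3K27ac over the KDR start was at 0.06 (adjusted p = 0.986, edgeR). The fibroblast and smooth muscle starts COL1A1 and ACTA2 summed to 128 to 134 CPM in ZNF436kd libraries and 108 to 158 CPM in ctrl libraries, and the endoderm start FOXA2 had 31.9 to 54.7 CPM in ZNF436kd libraries and 41.3 to 82.3 CPM in ctrl libraries. The part of cell makeup in the DPPA4 and L1TD1 values was not tested.

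**Figure D4:**
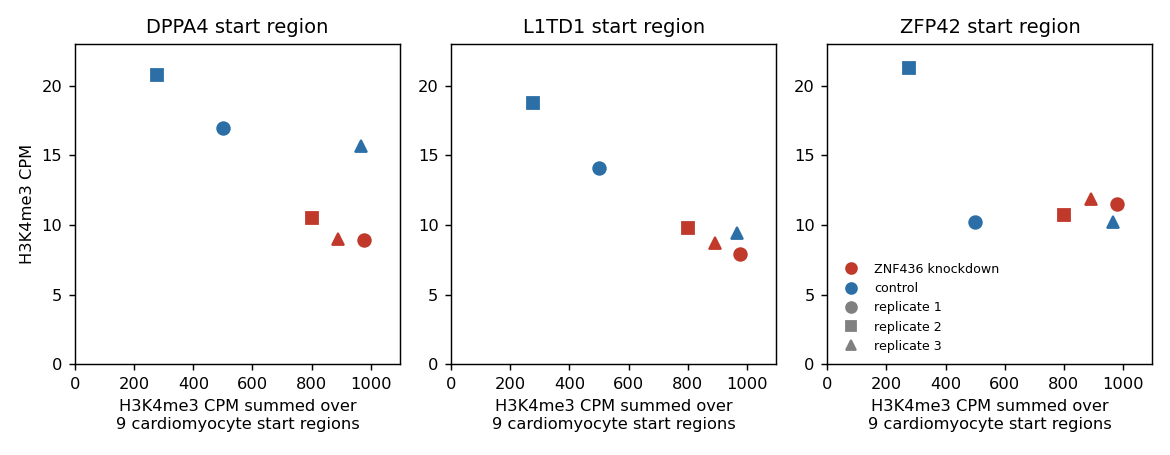
H3K4me3 over the DPPA4, L1TD1 and ZFP42 starts (CPM) against H3K4me3 summed over 9 cardiomyocyte starts (CPM) in each of 6 libraries, with ZNF436kd in red and ctrl in blue. Control 3 (blue triangle) sits among the ZNF436kd libraries on the horizontal axis, above them for DPPA4 and near them for L1TD1 and ZFP42.

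H3K27ac gave 0 calls at the pluripotency windows. Of the 32 regions, 20 were tested and 0 called in edgeR (0.0114% of 61484 regions tested were called). DESeq2 also called 0, with an adjusted p for 11 of the 20 (the other 9 were set aside by its own filter and could not be called). In edgeR 0 of the 20 had an unadjusted p under 0.05 (11.3% of all tested). The median log2 fold change was -0.03 over these regions and -0.05 over all tested. The groups did not overlap for 4 of the 20, all in the LIN28A and LIN28B windows, a share near the 17.5% of all tested regions. Their values are given as a description.

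In the LIN28B window, 2 of those regions had higher values in ZNF436kd cells. The LIN28B start had 89.4, 100 and 96.2 CPM of H3K27ac in ZNF436kd libraries, against 65.1, 80.4 and 81.1 CPM in ctrl libraries. Its log2 fold change of 0.33 (SE 0.22) did not pass (adjusted p = 0.617, edgeR). A region 12.5 kb downstream (chr6:105416572-105417499) had the smallest p of the windows without passing. It had 18.02, 14.8 and 11.7 CPM in ZNF436kd libraries, against 8.27, 8.81 and 4.04 CPM in ctrl libraries, from counts of 53, 39 and 38 in ZNF436kd libraries and 24, 24 and 11 in ctrl libraries. Its log2 fold change was 1.07 (SE 0.51, unadjusted p = 0.0504, adjusted p = 0.446, edgeR). H3K4me1 there was at -0.52 (SE 0.39, adjusted p = 0.655, edgeR) and its groups overlapped; the marks were not tested against each other.

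The highest mean H3K27ac per kb in the windows stood 39.7 kb past the LIN28B start region, at chr6:105443677-105444942. It had 43.9, 29.9 and 41.3 CPM in ZNF436kd libraries, against 31.4, 18.4 and 29.4 CPM in ctrl libraries, and these overlapped. Per kb this was 30.3 ± 5.86 CPM in ZNF436kd cells and 20.8 ± 5.53 CPM in ctrl cells (SD, n = 3 each); in ctrl cells this was not apart from a DNMT3B window region at chr20:31384834-31385118 (19.2 ± 13.6 CPM per kb). It ranked at percentile 99.6 in ZNF436kd cells and 98.6 in ctrl cells. The log2 fold change was 0.54 (SE 0.32, adjusted p = 0.558, edgeR). H3K4me1 was high there as well, at percentile 92.3 in ZNF436kd cells and 92.9 in ctrl cells, while H3K4me3 was at 0.91 ± 0.98 CPM per kb in ZNF436kd cells and 0.38 ± 0.34 CPM per kb in ctrl cells.

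**Figure D5:**
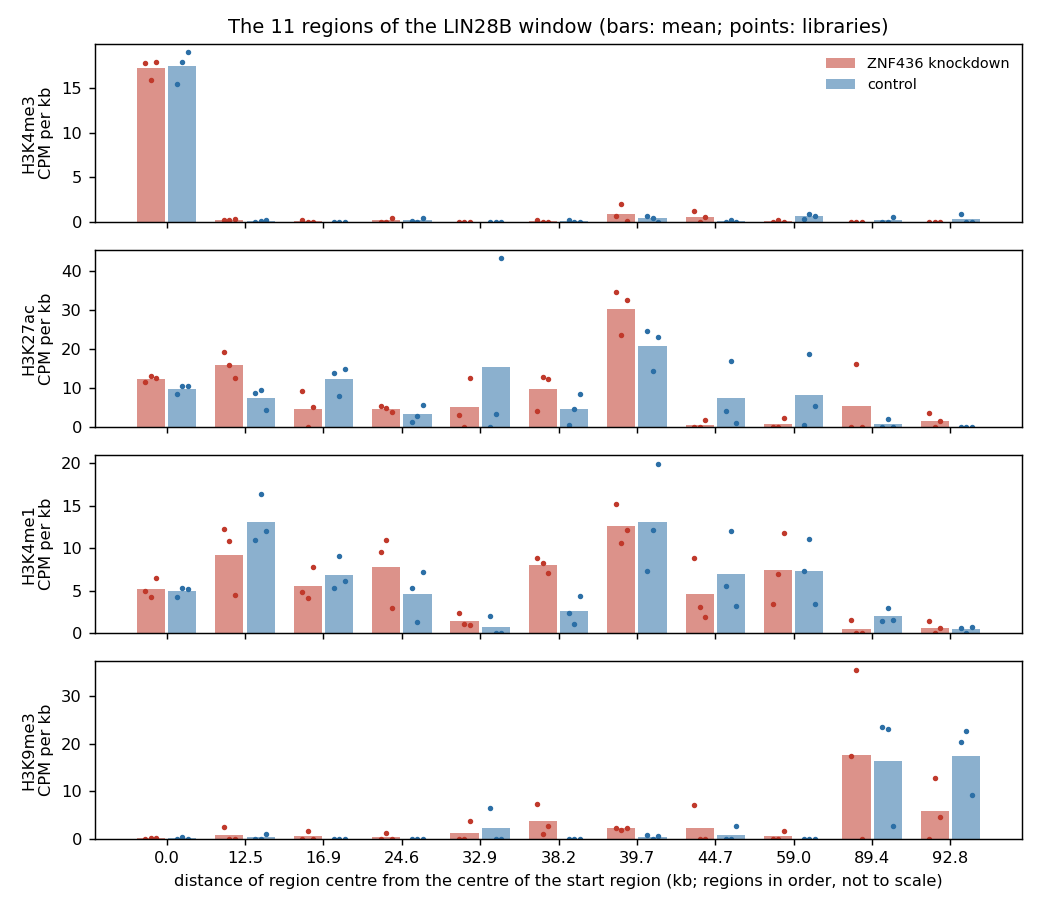
CPM per kb of 4 marks over the 11 regions of the LIN28B window, ordered by distance from the start region (kb), ZNF436kd left of ctrl (bars are means and points are libraries). H3K4me3 stands at the start, and H3K27ac has its highest mean 39.7 kb away. H3K9me3 has its highest means in the farthest regions, at 89.4 and 92.8 kb. There it rests on 0 to 12 counts per library at 89.4 kb (163 bp wide) and 0 to 16 at 92.8 kb. Both were too few to be tested. H3K4me1 has its highest mean at 39.7 kb in ZNF436kd cells. In ctrl cells it is as high at 12.5 kb (13.1 CPM per kb in both regions).

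In the LIN28A window, the other 2 had lower values in ZNF436kd cells. A region 7.67 kb past the LIN28A start region (chr1:26743244-26747133) had 38.8, 47.7 and 45.9 CPM of H3K27ac in ZNF436kd libraries, against 68.2, 62.0 and 52.9 CPM in ctrl libraries. Its log2 fold change was -0.47 (SE 0.25, unadjusted p = 0.0773, adjusted p = 0.514, edgeR). It ranked at percentile 87.4 in ZNF436kd cells and 95.2 in ctrl cells. H3K4me3 in this region was also at a negative value (-0.81, SE 0.41, adjusted p = 0.529, edgeR). The DHDDS start, a neighbour, was at -0.60 (SE 0.44). The LIN28A start itself overlapped, with 34.3, 45.8 and 60.1 CPM in ZNF436kd libraries, against 43.8, 53.2 and 26.8 CPM in ctrl libraries (0.18, SE 0.31).

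H3K4me1 was tested at 21 regions and called at 0 in edgeR (0 of 85815 regions tested, 0.0%). At an unadjusted p under 0.05 there were 2 of 21, where 10.5% of all tested regions reached it, and DESeq2 called 0, with an adjusted p for 20 of the 21. The median log2 fold change was -0.05 over these regions and -0.03 over all tested. The region that DESeq2 left without an adjusted p also had the smallest p in edgeR. It lay 38.2 kb past the LIN28B start region (chr6:105442568-105443039), beside the strong H3K27ac region. It had counts of 16, 16 and 16 in ZNF436kd libraries, against 5, 2 and 8 in ctrl libraries, or 4.15, 3.91 and 3.32 CPM in ZNF436kd libraries and 1.13, 0.489 and 2.08 CPM in ctrl libraries. The groups did not overlap, but the counts are small and the log2 fold change of 1.61 (SE 0.73) did not pass (adjusted p = 0.438, edgeR). The LIN28A start had 17.1, 16.6 and 21.2 CPM in ZNF436kd libraries, against 25.2, 32.7 and 22.6 CPM in ctrl libraries. It also kept the groups apart without passing (-0.55, SE 0.26, adjusted p = 0.462, edgeR). These were the 2 regions without overlap, where 15.6% of all tested regions had none.

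SOX2 had the most H3K4me1 of the 7 starts, at 7.03 ± 1.31 CPM per kb in ZNF436kd cells and 7.80 ± 1.09 CPM per kb in ctrl cells (SD, n = 3 each). It overlapped LIN28B in ZNF436kd cells and LIN28A in ctrl cells, the next below it in each. ZFP42 had the least in both groups, with 1.65 ± 0.79 CPM per kb in ZNF436kd cells and 1.91 ± 1.00 CPM per kb in ctrl cells.

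H3K9me3 counts in the windows were low, and 4 of 32 regions could be tested, with 0 called in edgeR (0.00982% of 30565 regions tested) and 0 at an unadjusted p under 0.05 (8.31% of all tested). DESeq2 gave none of the 4 an adjusted p, so it could call none and is no check here. The SOX2 start had the smallest p and did not pass. It held 12, 13 and 14 counts in ZNF436kd libraries, against 4, 6 and 1 in ctrl libraries. The groups did not overlap, as in 14.4% of all tested regions, and the log2 fold change was 1.78 (SE 0.94, unadjusted p = 0.0612, adjusted p = 0.623, edgeR). At 2.09 ± 0.15 CPM per kb in ZNF436kd cells and 0.61 ± 0.46 CPM per kb in ctrl cells (SD, n = 3 each), it ranked at percentile 54.6 in ZNF436kd cells and 33.2 in ctrl cells.

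The best covered H3K9me3 region lay 15.1 kb past the L1TD1 start region (chr1:62675446-62676596). It had 14.9, 13.6 and 8.90 CPM in ZNF436kd libraries, against 19.2, 18.3 and 13.9 CPM in ctrl libraries, and these overlapped. Its log2 fold change was -0.46 (SE 0.41, adjusted p = 0.811, edgeR), and its rank was at percentile 80.1 in ZNF436kd cells and 92.6 in ctrl cells. The other marks had at most 9 counts there in any library, while H3K9me3 had 26, 28 and 21 counts in ZNF436kd libraries and 40, 34 and 32 in ctrl libraries. The LIN28B window also held H3K9me3 far from its start, at 92.8 kb, in a region with 0, 10 and 4 counts in ZNF436kd libraries and 16, 16 and 8 in ctrl libraries, which overlapped and were too few to be tested.

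Summing all regions of each window into a single value did not add a call. The POU5F1 sum holds only the TCF19 and CCHCR1 region, and the LIN28A sum includes the DHDDS start. For H3K4me3 the 8 summed windows gave 0 calls in edgeR (0.557% of 26769 rows tested were called, with each window as 1 row), and the DPPA4 window missed the threshold narrowly. It summed to 9.71, 10.9 and 9.59 CPM in ZNF436kd libraries, against 17.8, 21.4 and 16.1 CPM in ctrl libraries (log2 fold change -0.87, SE 0.19, unadjusted p = 0.000285, adjusted p = 0.0506, edgeR). The L1TD1 window was at -0.69 (SE 0.24, adjusted p = 0.267, edgeR), and the other 6 lay between -0.28 and 0.31. DESeq2 called 1 summed window, that of DPPA4. For H3K27ac the LIN28B window had the smallest p, with 165, 157 and 166 CPM in ZNF436kd libraries, against 116, 133 and 145 CPM in ctrl libraries. These did not overlap, as in 17.5% of all single regions tested, and the log2 fold change was 0.31 (SE 0.20, adjusted p = 0.598, edgeR). Calls over all rows were 0.0114% for H3K27ac, 0.0% for H3K4me1 and 0.00981% for H3K9me3, with 0 windows among them in edgeR. DESeq2 called 0 windows too, but gave an adjusted p for 5 of 8 in H3K27ac, 8 of 8 in H3K4me1 and 0 of 7 in H3K9me3. For H3K4me1 the smallest p was that of LIN28A (-0.24, SE 0.18, adjusted p = 0.658, edgeR). For H3K9me3 it was also LIN28A, at 14.3, 9.70 and 8.47 CPM in ZNF436kd libraries, against 5.75, 7.52 and 1.299 CPM in ctrl libraries (1.16, SE 0.60, adjusted p = 0.615, edgeR). These did not overlap, as in 14.4% of all single regions tested. No region of this window had enough H3K9me3 counts to be tested alone. Of the counts, 14 in ZNF436kd cells and 8 in ctrl cells came from the DHDDS start.

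Other genes of the network served as a wider list. Of 15 such genes, 9 had a region over the start: SALL4, KLF4, OTX2, CDH1, PODXL, SFRP2, LEFTY1, LEFTY2 and TDGF1. The other 6 (DPPA2, DPPA3, FGF4, FOXD3, GDF3 and UTF1) had none. In H3K4me3, 8 were tested and 0 called in edgeR, with 3 higher and 5 lower in ZNF436kd cells and a median log2 fold change of -0.08. The smallest adjusted p was that of CDH1, the E-cadherin gene of epithelial and stem cells, with 30.6, 31.6 and 29.9 CPM in ZNF436kd libraries, against 49.4, 42.4 and 35.1 CPM in ctrl libraries (-0.46, adjusted p = 0.146, edgeR). The groups did not overlap there, and control 3 was again the ctrl library nearest to the ZNF436kd ones.

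By likeness of mark profile, measured as the Euclidean distance over 8 mean log2 CPM per kb values (4 marks in both groups) among 23 listed genes with a start region, the members fell near different genes. LIN28A was nearest to the cardiomyocyte genes ACTN2 (distance 1.99), TTN (2.13) and MYH6 (2.23), and LIN28B to EPCAM (2.92), TTN (2.94) and PLN (3.08). SOX2 was nearest to OTX2 (1.65), KLF4 (1.85) and PODXL (2.10), and ZFP42 to OTX2 (2.46), FOXA2 (2.74) and KLF4 (3.18). DPPA4 was nearest to KLF4 (2.90), OTX2 (2.97) and PLN (3.10). L1TD1 lay closest to FOXA2 (1.02), an endoderm factor, then OTX2 (2.55) and KDR (3.32). DNMT3B lay closest to KDR (1.14), ACTA2 (1.14) and KLF4 (1.76). Some H3K9me3 values in these distances rest on few counts. LIN28B had 0.16 CPM per kb in ZNF436kd cells and 0.11 in ctrl cells, from 8 and 5 counts, near the 0.1 added before log2. Most listed genes were cardiomyocyte or pluripotency genes, so the nearest names describe this list only.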

How the data were processed

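CUT&Tag was done on 24 libraries (4 marks, 3 ZNF436kd and 3 ctrl each), grouped by their titles. The deposited files hold raw read counts per region, not normalized by the authors, over the same 153244 regions (median width 708 bp). The submitters' processing notes list hg19, deepTools 3.5.4, bedtools 2.30.0 and Bowtie2 2.4.5; no source used here says how regions were made. Of the nonzero counts, 51.9% to 65.9% were even, as if both mates of some read pairs had been counted, so a printed count may stand for fewer fragments; halved counts were run for this reason. No replicate pair was within sampling noise (chi-square per degree of freedom 2.76 to 6.68).

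From the deposited counts, the 6 libraries of a mark were fitted together in edgeR 4.0.16 under R 4.3.3: filterByExpr, TMM, robust quasi-likelihood test on group, Benjamini-Hochberg over all tested regions, threshold 0.05. Fold changes are ZNF436kd over ctrl. The script was tested on simulated data with 200 changed regions. A second table held each window's regions as 1 summed row. The level of 0.1 CPM per kb was added before log2 for profile distances. A start region lies within 1 kb of a gene's start. Where several did, the region with the most H3K4me3 per kb was taken. The hg19 starts were placed by hand. They were kept where the gene's span matched RefSeq GRCh38.p14 within 3 kb (LIN28B did not and was kept as a member).

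Regions named are those over starts, those with the most H3K4me3 per kb in a window, called regions and, where a mark had none, the region with the smallest p; others were chosen after their values were seen. The members and lists were chosen with earlier results of these data known. Alternatives were RLE size factors, library totals, DESeq2 1.42.0, no filter, a stricter one (3 or more libraries at a CPM worth 30 reads of the shallowest library), a block on replicate number, each library left out in turn, and membership by region midpoint. Halved counts and, for H3K4me3, control 3 as the only control were added after seeing the data. Positions count from 1.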

Additional observations from a re-analysis of the deposited data

How the results depend on the processing

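Among H3K4me3 calls over all regions (150), DESeq2 gave 456 and no filter 666; leaving out a library gave 27 to 805. For the pluripotency windows (1 call) the replicate block gave 0 (DPPA4 adjusted p = 0.0686, edgeR; same-numbered libraries deviated from their group means with correlations of -0.103 to 0.0665, so numbers were not taken as pairs) and control 3 as the only control gave 0; leaving out a library gave 0 to 2. Summed H3K4me3 windows (0 calls) gave 1 in DESeq2, 1 with no filter and 1 with halved counts, and 0 to 2 when a library was left out. H3K27ac calls over all regions (7, of which 5 higher) became 4 with library totals (2 higher), 669 in DESeq2, 599 with no filter, 43 with the strict filter, 102 with the replicate block and 107 with halved counts, and ranged from 0 to 1412 when a library was left out. H3K4me1 calls (0) became 10 with library totals (all 10 higher), 94 in DESeq2, 208 with no filter and 94 with the replicate block, and 0 to 2443 when a library was left out. H3K9me3 calls (3) became 49 in DESeq2 and 6 with the replicate block, and 4 to 20 when a library was left out. Among the libraries left out, the highest counts came without control 3, or for H3K9me3 without control 2, and the lowest H3K4me3 count without knockdown 3. In H3K27ac, H3K4me1 and H3K9me3, each setting run gave 0 calls among regions and summed windows of the pluripotency genes; control 3 as the only control was run for H3K4me3 alone, and DESeq2 gave no adjusted p in the H3K9me3 windows. The causes were not tested.

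The log2 fold change of DPPA4 in H3K4me3 lay between -0.99 and -0.71 over 14 alternatives. Signs turned for ZFP42 in H3K4me3 without control 2 (0.15; -0.48 to 0.15 over the libraries left out) and with control 3 as the only control (0.16), for DHDDS with control 3 alone (0.14), for LIN28B in H3K4me3 (-0.093 to 0.044 over the libraries left out) and for LIN28A in H3K27ac (-0.026 to 0.41 over the libraries left out). Membership by midpoint gave the same 32 regions. Depth limits what could be seen: SE of the log2 fold changes in the windows were 0.22 to 0.99 for H3K27ac, 0.22 to 0.73 for H3K4me1 and 0.41 to 0.94 for H3K9me3.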
